A study of Rattus norvegicus with 12 samples.

Results

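This account follows 54 rat genes of splicing and messenger RNA (mRNA) processing through a QuantSeq 3′ mRNA sequencing experiment on RCS chondrocytes. They were chosen by the start of their symbol, which names families such as SR proteins, hnRNPs, spliceosome subunits, DEAD and DEAH helicases, nucleoporins and factors of mRNA decay, and by a total count over all libraries of 60 or more. The name rule matched 59 of the 1998 genes that carry a name here, of 32754 genes listed, and 54 of the 59 had enough reads. The values closest to that minimum were 46 reads for Prpf39 (ENSRNOG00000004521.8), which was left out, and 82 reads for Rbm38 (ENSRNOG00000006420.6), which was kept. Of the 54 members, 52 passed the filter on low counts and were tested, and Nup37 (ENSRNOG00000004727.7) and Rbm38 did not pass it.

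RCS is a chondrocyte line from a rat chondrosarcoma, and FGF18 is a fibroblast growth factor that acts on growth plate chondrocytes. WT RCS and 1 clone in which Fgfr3 and Fgfr4 had been disrupted by CRISPR (FGFR3/4KO RCS) were kept overnight with vehicle, which was medium with adult bovine serum, or with FGF18. The labels call the vehicle cells untreated and give FGF18 as 50 µg/ml, while the study's methods give 50 ng/ml. Each of the 4 groups (WT vehicle, WT FGF18, FGFR3/4KO vehicle and FGFR3/4KO FGF18) had 3 libraries, described as biological replicates. With 1 clone, a difference between clone and WT cannot be told apart from a difference between genotypes. Fgfr3 and Fgfr4 were not analysed here by name, so the knockout was not checked in the counts.

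The reads counted on genes ranged from 373964 in FGFR3/4KO vehicle replicate 2 to 1196647 in WT FGF18 replicate 1. By group they were 669585 to 947730 (WT vehicle), 846957 to 1196647 (WT FGF18), 373964 to 925006 (FGFR3/4KO vehicle) and 840149 to 1140741 (FGFR3/4KO FGF18). Levels are given as CPM (counts-per-million of the reads on tested genes, after TMM scaling). Between libraries of a group, the chi-square of the counts per degree of freedom was 1.56 to 1.63 in WT vehicle and 1.57 to 1.87 in FGFR3/4KO vehicle, but 2.99 to 5.67 in WT FGF18. In FGFR3/4KO FGF18 it was 1.999 between replicates 2 and 3, and 4.62 and 4.65 between each of these and replicate 1, which stood apart. The part of this spread in the results was not tested. At these depths 3 reads corresponded to 2.46 to 8.50 CPM, a floor that covers counting error only. QuantSeq reads each transcript near its 3′ end, so the counts describe how much of a transcript was present and carry no measure of how it was spliced. Among chondrocyte markers, Sox9, Col11a2, Mia, Prelp and Fmod were abundant in all 12 libraries, and the 7 markers summed to between 5924 and 8742 CPM. Epyc was at 0 in 1 library and Chad at 1.10 to 19.7 CPM, so these 2 markers were low. The sum was 6535 to 6852 CPM with vehicle and 5924 to 6309 CPM with FGF18 in WT RCS, and 8108 to 8169 CPM and 8415 to 8742 CPM in the clone, and its part in the results was not tested. Single markers moved in both directions with FGF18 in WT RCS, where Prelp (log2 -0.68, FDR = 3.74e-05) and Fmod (-0.57, FDR = 0.00206) fell and Mia (0.37, FDR = 0.0158) rose by edgeR's quasi-likelihood test. Of 6 chondrocyte markers tested, 5 differed between the clone and WT RCS with vehicle, 3 higher and 2 lower, and all 6 with FGF18. Of all genes tested, 14.1% differed with vehicle and 33.9% with FGF18.

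As background, a primary transcript becomes an mRNA when the spliceosome removes its introns, guided by SR proteins and hnRNPs that bind exons and introns and often act in opposite directions. Cleavage and polyadenylation factors form the 3′ end, the TREX complex hands the mRNA to the nuclear pore, and deadenylases, surveillance factors and binding proteins set how long it lasts. Many of these proteins are made in larger amounts in growing and dividing cells, and FGF signalling is known to slow chondrocyte proliferation.

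In WT RCS, FGF18 lowered more members than it raised. Of 52 members tested, 12 were lower (23.1%, against 12.8% of all 7378 genes tested) and 2 were higher (3.85%, against 12.9% of all genes). Members could only come from genes with a name, and of 1418 such genes tested 13.7% were lower and 10.4% higher. A gene counts as called when edgeR's quasi-likelihood test gave it a false discovery rate (FDR, Benjamini-Hochberg over every gene tested) below 0.05, and SE stands for the standard error of a log2 fold change. These p-values measure spread among cultures that the labels call biological replicates. The median log2 fold change of the 52 members was -0.28, against 0.02 over all genes tested and -0.02 over the named genes tested. Of the members, 38 lay below 0 and 14 above. The count of 12 came to 7 of 53 tested without WT vehicle replicate 1 and to 7 of 51 without WT vehicle replicate 3. The count over all genes, 948 of 7378, also came down in these fits, to 763 of 7683 and 679 of 7546. Calls lost without WT vehicle replicate 1 had log2 fold changes there of -0.467 (Elavl1), -0.449 (Tra2b) and -0.639 (Mettl16). The others lost there were Hnrnph1 (-0.385), Dhx15 (-0.639) and Rbm28 (-0.538). Whether the smaller number of samples or the library itself lost these calls was not tested. The 2 members that rose, Celf5 and Rbms2, and 6 of the 12 that fell, Nup107, Nup85, Ddx52, Srsf2, Cpsf2 and Hnrnpd, passed in every alternative tried. In bulk libraries, fewer cells of a kind and less RNA per cell cannot be told apart.

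Summed over the 54 members, the share of all reads on genes was lower with FGF18 in WT RCS. They took 0.681%, 0.689% and 0.701% in the WT vehicle libraries and 0.545%, 0.527% and 0.511% in the WT FGF18 libraries. In FGFR3/4KO RCS the shares were 0.633%, 0.629% and 0.668% with vehicle and 0.593%, 0.652% and 0.634% with FGF18. The WT groups did not overlap, and the FGFR3/4KO groups did. This share uses no scaling between libraries and was given no test, and Srsf2 alone held 8324 of the members' reads.

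**Figure D1:**
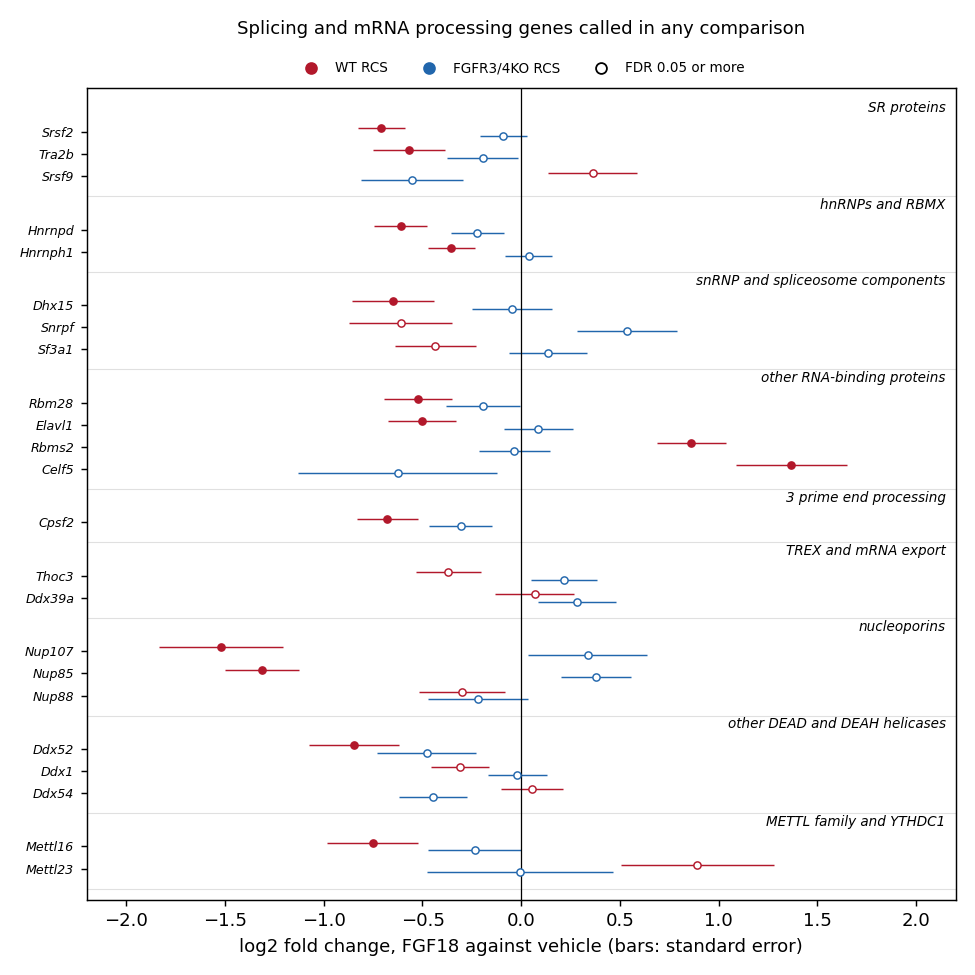
Log2 fold change of FGF18 against vehicle (horizontal axis) for the 23 members called in at least 1 of the 5 comparisons, grouped by role, in WT RCS (red) and FGFR3/4KO RCS (blue), with bars for the standard error and filled points where the FDR was under 0.05. In WT RCS 12 filled points lie left of 0 and 2 right of it, and no FGFR3/4KO point is filled.

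SR proteins bind exonic enhancers and recruit the spliceosome, and 2 of the 5 tested fell in WT RCS while none rose. Srsf2 (ENSRNOG00000000248.6), an SR protein of nuclear speckles, stood at 901, 873 and 869 CPM in the WT vehicle libraries and at 562, 529 and 526 CPM with FGF18. The 3 treated libraries lay close together, and all were below the 3 vehicle libraries. Its log2 fold change was -0.71 (SE 0.12, FDR = 5.12e-05, edgeR's quasi-likelihood test), and the call held without any 1 library. Srsf2 in FGFR3/4KO RCS was at 859, 1085 and 964 CPM with vehicle and 889.9, 858 and 975 CPM with FGF18, and these ranges overlapped. The difference between the FGF18 effects in the 2 genotypes was itself past the threshold (log2 0.62, SE 0.17, FDR = 0.0151, edgeR's quasi-likelihood test). Without FGFR3/4KO vehicle replicate 1 that difference was 0.54 and did not pass (FDR = 0.0709, edgeR's quasi-likelihood test).

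Tra2b (ENSRNOG00000001783.6), an SR-like activator of exon inclusion, was at 106, 91.1 and 75.0 CPM with vehicle and 67.2, 47.8 and 66.5 CPM with FGF18 in WT RCS. The groups did not overlap, though vehicle replicate 3 lay near the treated libraries. The log2 fold change was -0.57 (SE 0.18, FDR = 0.0220, edgeR's quasi-likelihood test). That call was lost without WT vehicle replicate 1 (FDR = 0.123), WT vehicle replicate 2 (FDR = 0.0587) or WT FGF18 replicate 2 (FDR = 0.128) in edgeR's quasi-likelihood test. Of the other SR proteins, Srsf6 (ENSRNOG00000006380.6) had the most reads and a log2 fold change of 0.02 (SE 0.19).

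The hnRNPs coat nascent transcripts and, with the related protein RBMX, modulate splice site choice, and 2 of 4 tested fell in WT RCS. Hnrnpd (ENSRNOG00000002292.8), which binds AU-rich elements and bears on mRNA turnover, was at 251, 241 and 282 CPM with vehicle and 179, 159.7 and 169 CPM with FGF18. All treated libraries lay below all vehicle libraries, and the log2 fold change was -0.61 (SE 0.13, FDR = 0.00126, edgeR's quasi-likelihood test). Hnrnpd in FGFR3/4KO RCS was at 276, 292 and 284 CPM with vehicle and 215, 246 and 264 CPM with FGF18. Those groups did not overlap either, but the log2 fold change of -0.22 (SE 0.13) had an FDR of 0.798 by edgeR's quasi-likelihood test. The difference between the genotypes in the Hnrnpd effect did not pass (log2 0.39, FDR = 0.223, edgeR's quasi-likelihood test).

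Hnrnph1 (ENSRNOG00000003399.8), a binder of G-rich sequences, was at 497, 538 and 521 CPM with vehicle and 371, 403 and 446 CPM with FGF18 in WT RCS. The drop was small, with a log2 fold change of -0.35 (SE 0.12, FDR = 0.0299, edgeR's quasi-likelihood test). It was lost without any 1 of the WT libraries other than WT FGF18 replicate 3, with FDR from 0.0512 to 0.114 by edgeR's quasi-likelihood test, and also with no filter on low counts. Hnrnpdl (ENSRNOG00000002270.7), a paralog of Hnrnpd, did not pass (log2 -0.55, SE 0.22, FDR = 0.0628, edgeR's quasi-likelihood test).

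Among snRNP and spliceosome components, all 7 tested had log2 fold changes below 0 in WT RCS, also under upper-quartile and RLE scaling, but 1 passed. This was Dhx15 (ENSRNOG00000003844.6), the helicase that takes spent spliceosomes apart, at 71.0, 58.5 and 77.9 CPM with vehicle and 43.4, 52.6 and 35.7 CPM with FGF18. Its log2 fold change was -0.65 (SE 0.21, FDR = 0.0208, edgeR's quasi-likelihood test). The call was lost without WT vehicle replicates 1 or 3 or without WT FGF18 replicates 1 or 3, with FDR from 0.0531 to 0.125 by edgeR's quasi-likelihood test.

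Snrpf (ENSRNOG00000005556.5) encodes a subunit of the Sm ring that surrounds the small nuclear RNAs. Its level was 242, 204 and 296 CPM with vehicle and 125, 178 and 189 CPM with FGF18 in WT RCS. For FGFR3/4KO RCS the values were 241, 102 and 344 CPM with vehicle and 472, 363 and 224 CPM with FGF18. The FGFR3/4KO libraries were spread widely in both groups, and the lowest, vehicle replicate 2, was also the shallowest. Neither genotype passed alone, at a log2 fold change of -0.61 (FDR = 0.0879) in WT RCS and 0.54 (FDR = 0.755) in FGFR3/4KO RCS by edgeR's quasi-likelihood test. Their difference did pass, at 1.15 (SE 0.36, FDR = 0.0407, edgeR's quasi-likelihood test). It was lost without WT vehicle replicates 1 or 3, WT FGF18 replicate 1, FGFR3/4KO vehicle replicates 1 or 2, or FGFR3/4KO FGF18 replicates 1 or 2, with FDR from 0.0663 to 0.141 by edgeR's quasi-likelihood test. DESeq2 and the replicate block also lost it.

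The widest range was in the other RNA-binding proteins, of which 2 of 8 tested rose and 2 fell in WT RCS. Celf5 (ENSRNOG00000004695.5), of a family of splicing and translation regulators best known from brain and muscle, was at 13.0, 17.7 and 18.99 CPM with vehicle and 49.2, 46.9 and 33.3 CPM with FGF18. Its FGFR3/4KO levels were 7.66, 8.50 and 6.58 CPM with vehicle and 3.95, 5.32 and 4.61 CPM with FGF18. Each FGF18 library of WT RCS lay above each vehicle library, while in FGFR3/4KO RCS the order was the opposite, at a level of 3 to 6 reads per library. The rise in WT RCS had a log2 fold change of 1.37 (SE 0.28, FDR = 0.000620, edgeR's quasi-likelihood test). The difference between genotypes was -1.99 (SE 0.59, FDR = 0.0274, edgeR's quasi-likelihood test). That difference was lost without any 1 of WT vehicle replicate 1, WT FGF18 replicates 1 or 2, FGFR3/4KO FGF18 replicates 1 or 3 and the 3 FGFR3/4KO vehicle replicates, with FDR from 0.0501 to 0.0803 by edgeR's quasi-likelihood test. DESeq2 and both other filters on low counts lost it as well.

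Rbms2 (ENSRNOG00000003076.7), which binds single-stranded nucleic acids, was at 50.7, 51.7 and 57.0 CPM with vehicle and 86.9, 96.6 and 109.7 CPM with FGF18 in WT RCS. With FGFR3/4KO it was at 64.3, 82.1 and 82.2 CPM with vehicle and 76.5, 76.2 and 70.0 CPM with FGF18, where the groups overlapped. The WT log2 fold change was 0.86 (SE 0.18, FDR = 0.000543, edgeR's quasi-likelihood test), and the difference between genotypes was -0.90 (SE 0.25, FDR = 0.0200, edgeR's quasi-likelihood test). The difference was lost without WT FGF18 replicate 2 (FDR = 0.0513), FGFR3/4KO vehicle replicate 3 (FDR = 0.0925) or FGFR3/4KO FGF18 replicate 3 (FDR = 0.0596) in edgeR's quasi-likelihood test. DESeq2 and both other filters on low counts lost it too.

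The 2 members of that list that fell were Rbm28 (ENSRNOG00000005468.7), a nucleolar protein of ribosome biogenesis, and Elavl1 (ENSRNOG00000001069.6), known as HuR, which stabilises AU-rich mRNAs. Rbm28 was at 149, 135 and 171 CPM with vehicle and 122, 116 and 76.4 CPM with FGF18 in WT RCS, a log2 fold change of -0.52 (SE 0.17, FDR = 0.0259, edgeR's quasi-likelihood test). Without WT vehicle replicate 1, WT vehicle replicate 3 or WT FGF18 replicate 3 its FDR was 0.0533, 0.152 and 0.121 by edgeR's quasi-likelihood test. Elavl1 was at 133, 122 and 124 CPM with vehicle and 91.8, 88.0 and 87.5 CPM with FGF18, tight groups that did not overlap. Its log2 fold change was -0.50 (SE 0.17, FDR = 0.0308, edgeR's quasi-likelihood test). Leaving out any 1 of the 6 WT libraries put the FDR between 0.0503 and 0.0926 in edgeR's quasi-likelihood test, and DESeq2 did not call it. Rbm3 (ENSRNOG00000005387.6), the cold-induced RNA-binding protein with the most reads in this list, had a log2 fold change of -0.01 (SE 0.12).

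Of the 3 tested factors of 3′ end processing, Cpsf2 (ENSRNOG00000005733.6) fell. It encodes a subunit of the complex that recognises the polyadenylation signal, and it was at 310.1, 307 and 273 CPM with vehicle and 226, 183 and 142 CPM with FGF18 in WT RCS. In FGFR3/4KO RCS it was at 273, 255 and 209 CPM with vehicle and 204, 187 and 201 CPM with FGF18. In both genotypes every treated library was below every vehicle library. The log2 fold change was -0.68 in WT RCS (SE 0.15, FDR = 0.00154, edgeR's quasi-likelihood test) and -0.31 in FGFR3/4KO RCS (SE 0.16, FDR = 0.756, edgeR's quasi-likelihood test). The difference between them did not pass (log2 0.37, FDR = 0.328, edgeR's quasi-likelihood test). Cpsf6 (ENSRNOG00000005927.6) had a log2 fold change of -0.09 in WT RCS (SE 0.15). For TREX and mRNA export, 0 of 4 members passed by edgeR's quasi-likelihood test or by DESeq2, and 1 had an unadjusted p under 0.05. Thoc3 (ENSRNOG00000000104.5), the most read of these, had a log2 fold change of -0.37 (SE 0.17, FDR = 0.104, edgeR's quasi-likelihood test).

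Of 5 nucleoporins tested, 2 fell in WT RCS, and these had the largest falls of single members. Nup85 (ENSRNOG00000003673.7) and Nup107 (ENSRNOG00000006541.6) are subunits of the Y-shaped scaffold complex of the nuclear pore, which also acts at kinetochores in mitosis. Nup85 was at 120.3, 131 and 91.9 CPM with vehicle and 41.8, 42.1 and 54.2 CPM with FGF18 in WT RCS. Its levels in FGFR3/4KO RCS were 106, 79.3 and 91.0 CPM with vehicle and 123, 129 and 112 CPM with FGF18. FGF18 libraries were all below vehicle libraries in WT RCS and all above them in FGFR3/4KO RCS. The log2 fold change was -1.31 in WT RCS (SE 0.19, FDR = 5.47e-06, edgeR's quasi-likelihood test) and 0.38 in FGFR3/4KO RCS (SE 0.18, FDR = 0.755, edgeR's quasi-likelihood test). Their difference was 1.69 (SE 0.26, FDR = 4.81e-05, edgeR's quasi-likelihood test). Both calls held in every alternative and without any 1 library.

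Nup107 was at 55.1, 43.5 and 86.9 CPM with vehicle and 18.0, 23.9 and 24.6 CPM with FGF18 in WT RCS. FGFR3/4KO libraries held 50.6, 11.3 and 58.1 CPM with vehicle and 63.3, 59.4 and 47.9 CPM with FGF18. The value of 11.3 CPM was 4 reads in the shallowest library, and apart from it the FGFR3/4KO libraries lay between 47.9 and 63.3 CPM. The log2 fold change was -1.52 in WT RCS (SE 0.31, FDR = 0.000638, edgeR's quasi-likelihood test) and the difference between genotypes 1.86 (SE 0.44, FDR = 0.00505, edgeR's quasi-likelihood test). Both calls held without any 1 library, FGFR3/4KO vehicle replicate 2 included. The other 3 nucleoporins tested, Nup54 (ENSRNOG00000002247.5), Nup88 (ENSRNOG00000006126.6) and Nup153 (ENSRNOG00000001456.5), did not pass in WT RCS, with log2 fold changes from -0.30 to -0.14.

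**Figure D2:**
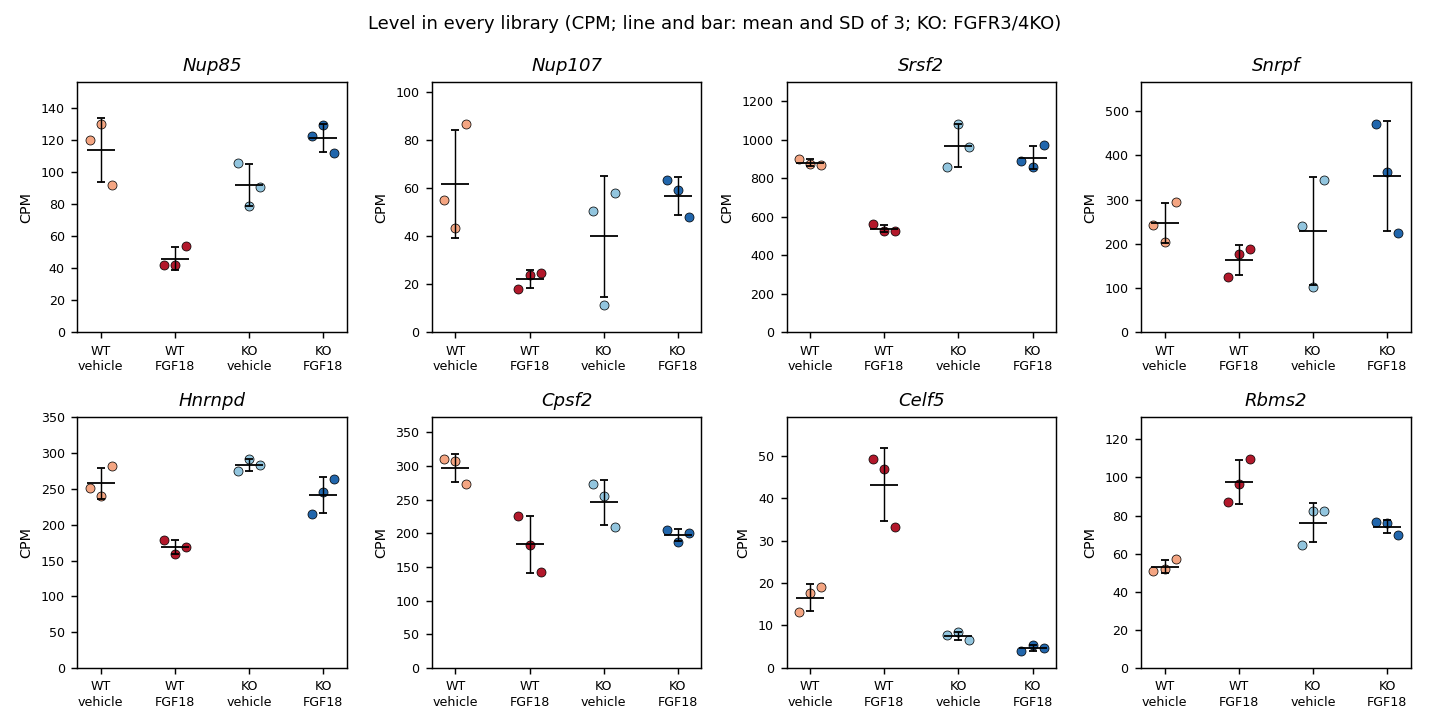
Level in CPM (vertical axis, from 0) of 8 members in each of the 12 libraries, with the mean and SD of each group of 3. The WT FGF18 libraries lie below the WT vehicle libraries for Nup85, Nup107, Srsf2, Snrpf, Hnrnpd and Cpsf2 and above them for Celf5 and Rbms2, and Snrpf did not pass the test in WT RCS.

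No factor of mRNA decay and surveillance passed in WT RCS, where 0 of 5 had an FDR below 0.05 in edgeR's quasi-likelihood test or by DESeq2 and 0 an unadjusted p under 0.05. These transcripts were mostly rare, and Smg6 (ENSRNOG00000003041.8), an endonuclease of nonsense-mediated decay with the most reads of them, had a log2 fold change of 0.28 (SE 0.23). Among the other DEAD and DEAH helicases, 1 of 7 fell. Ddx52 (ENSRNOG00000002612.6), whose yeast relative acts in ribosome biogenesis, was at 55.1, 73.4 and 67.0 CPM with vehicle and 39.3, 43.0 and 24.6 CPM with FGF18. The groups did not overlap, and the log2 fold change was -0.85 (SE 0.23, FDR = 0.00690, edgeR's quasi-likelihood test). Ddx52 in FGFR3/4KO RCS was at 53.6, 33.99 and 52.6 CPM with vehicle and 39.5, 31.9 and 34.1 CPM with FGF18, with a log2 fold change of -0.48 (SE 0.25) that did not pass. Ddx1 (ENSRNOG00000006652.6), a helicase of the tRNA ligase complex with the most reads of the other 6, had a log2 fold change of -0.31 (SE 0.15, FDR = 0.128, edgeR's quasi-likelihood test).

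Of the METTL family and Ythdc1 (ENSRNOG00000001996.7), 1 of 4 fell. Mettl16 (ENSRNOG00000002764.9), a methyltransferase of a spliceosomal small nuclear RNA, was at 81.2, 47.6 and 77.9 CPM with vehicle and 42.6, 45.0 and 34.5 CPM with FGF18 in WT RCS. WT vehicle replicate 2 lay just above the treated libraries and the other vehicle libraries far above them. The log2 fold change was -0.75 (SE 0.23, FDR = 0.0163, edgeR's quasi-likelihood test). Without WT vehicle replicate 1 or WT vehicle replicate 3 its FDR was 0.0838 and 0.103 by edgeR's quasi-likelihood test. Ythdc1, a nuclear reader of methylated RNA, had a log2 fold change of -0.28 (SE 0.15).

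Proliferation genes fell more evenly with FGF18 in WT RCS than the members, of which 12 of 52 fell and 2 rose. All 10 of a list of 10 (Mcm4, Mcm6, Mcm7, Foxm1, Aurka, Aurkb, Cdk1, Cenpf, Nusap1 and Pttg1) fell in WT RCS with FGF18, with a median log2 fold change of -1.10. Their summed level was 2177, 1965 and 2044 CPM in the WT vehicle libraries and 918, 973 and 1023 CPM with FGF18. In FGFR3/4KO RCS it was 2076, 2082 and 2087 CPM with vehicle and 2204, 2108 and 2072 CPM with FGF18, and 0 of the 10 passed there by edgeR's quasi-likelihood test, with 0 at an unadjusted p under 0.05. Of the 10, 9 passed the interaction with a positive sign (against 5.91% of all genes) and 9 were higher in the clone than in WT RCS with FGF18 (against 16.9%). With vehicle, 2 of the 10 were already higher in the clone (against 590 of all 7378 genes) and 0 were lower (against 448). There, 4 had an unadjusted p under 0.05. The log2 fold changes ran from -0.68 to 0.67, with 6 above 0 and 4 below. Pttg1 was the most abundant of the list, and no gene of it was at 0 in any library. Their part in the change of the members was not tested.

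Markers of other cell types were low. Alb, the most abundant of 4 hepatocyte markers, was at 5.80, 9.52 and 1.999 CPM with vehicle and 5.74, 25.8 and 28.3 CPM with FGF18 in WT RCS. Its values in FGFR3/4KO RCS were 22.98, 19.8 and 23.01 CPM with vehicle and 0, 4.43 and 5.53 CPM with FGF18. It passed in WT RCS (log2 1.79, FDR = 0.0234, edgeR's quasi-likelihood test), where its groups overlapped, and the interaction (-4.35, FDR = 0.000887) also passed in edgeR's quasi-likelihood test. Alb was higher in the clone than in WT RCS with vehicle (2.01, FDR = 0.0239) and lower with FGF18 (-2.34, FDR = 0.00307) by edgeR's quasi-likelihood test. The 4 markers summed to at most 39.4 CPM in a library, and Apoa2 was at 0 in 6, Fetub in 8 and Serpinc1 in 4 of the 12 libraries. The sum of 4 fibroblast markers was 17.4, 20.4 and 21.99 CPM with vehicle and 26.2, 24.9 and 43.1 CPM with FGF18 in WT RCS, without overlap, and 17.1 to 29.1 CPM in the clone. Col1a1 and Pdgfra were higher in each WT FGF18 library than in each WT vehicle library. Thy1 went the other way, at 15.9, 14.96 and 18.99 CPM with vehicle and 13.9, 10.5 and 8.62 CPM with FGF18. It did not pass (log2 -0.57, FDR = 0.282, edgeR's quasi-likelihood test). For 2 glia markers the sum was 0 to 4.35 CPM in WT RCS and 7.37 to 18.5 CPM in the clone, so every clone library was above every WT library. Bone cell markers, 2 genes, summed to 0 to 2.72 CPM in WT RCS, 2.19 to 3.06 CPM in the clone with vehicle and 3.95 to 11.5 CPM in the clone with FGF18. For 3 neuron markers the sum was 16.3 to 76.5 CPM in WT RCS and 11.3 to 43.3 CPM in the clone, with overlap. Gap43 alone did not overlap, at 2.72 to 14.5 CPM in WT RCS and 0 to 1.84 CPM in the clone, while Snap25 and Syt1 did. In WT RCS, Snap25 was at 2.46 to 13.4 CPM with FGF18 and 0 to 1.45 CPM with vehicle. The part of any of these in the results was not tested.

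In FGFR3/4KO RCS no member passed for FGF18 against vehicle, and 0% of all 7378 genes did. By edgeR's quasi-likelihood test 0 of 52 members had an FDR below 0.05, by DESeq2 also 0, and 5 had an unadjusted p under 0.05, against 478 of all genes. The lowest FDR of a member was 0.752 by edgeR's quasi-likelihood test. Their median log2 fold change was -0.05, against 0.01 over all genes. The 5 with an unadjusted p under 0.05, named after their values were seen, had log2 fold changes of -0.82 (Cnot8, ENSRNOG00000002630.5), -0.55 (Srsf9), -0.45 (Ddx54), 0.38 (Nup85) and 0.54 (Snrpf).

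The interaction tests whether the FGF18 effect differed between the genotypes, as the effect in FGFR3/4KO RCS minus that in WT RCS. It was positive and past the threshold for 4 of 52 members (7.69%, against 5.91% of all genes) and negative for 2 (3.85%, against 4.96%). These shares are near those of all genes. The 4 were Nup107, Nup85, Snrpf and Srsf2, and the 2 were Celf5 and Rbms2. Of the 14 members changed in WT RCS, 5 passed the interaction, which uses the same WT libraries and so is no separate evidence for the WT effects. The same count was not taken for the 1898 genes changed in WT RCS, so 5 of 14 cannot be set against genes in general. For the other 9 of the 14 members, a weaker effect in FGFR3/4KO RCS was not established. The positive count was 2 without FGFR3/4KO vehicle replicate 1. The negative count was 0 without WT FGF18 replicate 2, FGFR3/4KO vehicle replicate 3 or FGFR3/4KO FGF18 replicate 3, and 1 without WT vehicle replicate 1, WT FGF18 replicate 1, FGFR3/4KO vehicle replicates 1 or 2 or FGFR3/4KO FGF18 replicate 1.

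Without FGF18, the clone and WT RCS differed in 0 of 52 members, against 14.1% of all genes. DESeq2 also called 0, and 8 members had an unadjusted p under 0.05 by edgeR's quasi-likelihood test, against 2046 of all 7378 genes. The lowest FDR was 0.0553, for Celf5 (log2 fold change -1.18, SE 0.41, edgeR's quasi-likelihood test). Its 3 FGFR3/4KO libraries, at 6.58 to 8.50 CPM, lay below the 3 WT libraries, at 13.0 to 18.99 CPM. Next by FDR came Ddx39b (ENSRNOG00000000841.7), a helicase of TREX named after its values were seen, whose groups overlapped (log2 0.54, SE 0.19, FDR = 0.0627, edgeR's quasi-likelihood test). Leaving out FGFR3/4KO vehicle replicate 2 or FGFR3/4KO FGF18 replicate 1 gave 1 member higher. Leaving out FGFR3/4KO vehicle replicate 3 or FGFR3/4KO FGF18 replicate 1 gave 1 member lower, and leaving out WT FGF18 replicate 3 gave 2.

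With FGF18 in both, 13 of 52 members were higher in FGFR3/4KO RCS than in WT RCS (against 16.9% of all genes) and 5 were lower (9.62%, against 17.0%). This comparison shares the WT FGF18 libraries with the test of FGF18 in WT RCS, so its calls are no separate evidence for the falls described there. The reads passed over for low alignment quality were 77.0% to 79.8% of a library in WT RCS and 71.2% to 74.6% in FGFR3/4KO RCS, and the part of this in comparisons of the clone with WT was not tested. Higher in the clone were Nup85 (log2 1.41), Nup107 (1.36), Snrpf (1.11), Sf3a1 (0.91), Srsf2 (0.75), Dhx15 (0.67), Tra2b (0.53), Hnrnpd (0.52), Ddx39a (0.51), Thoc3 (0.47), Hnrnph1 (0.45), Elavl1 (0.44) and Ddx1 (0.41). Sf3a1 (ENSRNOG00000005218.5), a subunit of the spliceosome's branch point complex, was at 83.6, 89.9 and 115 CPM in WT FGF18 libraries and at 252, 139 and 153 CPM in FGFR3/4KO FGF18 libraries. Its groups did not overlap, and FGFR3/4KO FGF18 replicate 1 was far above the rest (SE 0.20, FDR = 0.000704, edgeR's quasi-likelihood test). Ddx39a (ENSRNOG00000004373.6), a helicase of mRNA export, was at 44.3, 48.8 and 50.5 CPM against 71.2, 69.1 and 64.5 CPM (FDR = 0.0343, edgeR's quasi-likelihood test).

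Lower in the clone with FGF18 were Celf5 (log2 -3.17), Srsf9 (-1.03), Mettl23 (-0.97), Ddx54 (-0.62) and Nup88 (-0.59). Celf5 had the largest difference of any member, between 33.3 and 49.2 CPM in WT RCS and between 3.95 and 5.32 CPM in the clone (SE 0.34, FDR = 4.63e-08, edgeR's quasi-likelihood test). Srsf9 (ENSRNOG00000001163.4), an SR protein, was at 59.0, 45.9 and 75.2 CPM in WT RCS and 30.3, 24.8 and 32.2 CPM in the clone (SE 0.23, FDR = 0.00104, edgeR's quasi-likelihood test). Ddx54 (ENSRNOG00000001377.7) was at 102, 115 and 93.6 CPM against 65.9, 67.4 and 69.1 CPM (SE 0.16, FDR = 0.00356, edgeR's quasi-likelihood test). None of these 3 groups overlapped, and the 3 calls held in every alternative. The count of 5 was 3 without any 1 of the WT vehicle replicates 1, 2 and 3, WT FGF18 replicates 1 and 2, the FGFR3/4KO vehicle replicates 1, 2 and 3 and FGFR3/4KO FGF18 replicate 1. Nup88 (FDR = 0.0471) and Mettl23 (FDR = 0.0449) were just past the threshold of edgeR's quasi-likelihood test. Mettl23 (ENSRNOG00000000249.5) kept its call only without FGFR3/4KO FGF18 replicate 2, with FDR from 0.0520 to 0.171 without any other library by edgeR's quasi-likelihood test. Nup88 kept its call only without WT FGF18 replicate 3 or FGFR3/4KO FGF18 replicate 3, with FDR from 0.0542 to 0.245 otherwise by edgeR's quasi-likelihood test. Both were also lost under DESeq2, both other filters on low counts, only the groups compared and the replicate block, and kept in the 3 remaining settings.

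Among the 13 higher in the clone with FGF18, 6 also lost their call without 1 library in edgeR's quasi-likelihood test. Elavl1 was lost without any 1 of the 6 WT libraries or without FGFR3/4KO FGF18 replicates 1 or 2 (FDR from 0.0504 to 0.257, edgeR's quasi-likelihood test). Ddx39a was lost without WT FGF18 replicates 1 or 2 or FGFR3/4KO FGF18 replicates 1 or 2 (FDR from 0.0525 to 0.116, edgeR's quasi-likelihood test). Ddx1 was lost without WT FGF18 replicates 1 or 2 or FGFR3/4KO FGF18 replicate 3 (FDR from 0.0651 to 0.102, edgeR's quasi-likelihood test). Thoc3 was lost without WT FGF18 replicate 1 (FDR = 0.128) or FGFR3/4KO FGF18 replicate 1 (FDR = 0.107) in edgeR's quasi-likelihood test. Tra2b was lost without WT FGF18 replicate 2 (FDR = 0.118) or FGFR3/4KO FGF18 replicate 2 (FDR = 0.0768), and Dhx15 without FGFR3/4KO FGF18 replicate 3 (FDR = 0.0530), in edgeR's quasi-likelihood test. Other settings lost calls too, with Elavl1 lost under DESeq2, upper-quartile scaling, only the groups compared and the replicate block, and Ddx39a under DESeq2, upper-quartile scaling, no filter and only the groups compared. DESeq2 lost Tra2b, and only the groups compared lost Thoc3 and Ddx1. The other 7, Nup85, Nup107, Snrpf, Sf3a1, Srsf2, Hnrnpd and Hnrnph1, passed without any 1 library and in every other setting.

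Other genes of mRNA processing, whose symbols the name rule does not match, were taken from lists of 49 genes, of which 42 were tested. In WT RCS 4 fell with FGF18 (9.52%, below the 12.8% of all genes) and 0 rose (against 12.9%) by edgeR's quasi-likelihood test, 8 had an unadjusted p under 0.05, and the median log2 fold change was -0.15. Pnn (ENSRNOG00000004061.5), an SR-related protein of nuclear speckles, was at 76.8, 91.1 and 101 CPM with vehicle and 56.6, 50.7 and 50.5 CPM with FGF18 (log2 -0.77, SE 0.19, FDR = 0.00399, edgeR's quasi-likelihood test). Zcrb1 (ENSRNOG00000004996.5), of the minor spliceosome, was at 465, 500.4 and 426 CPM with vehicle and 356, 312 and 269.8 CPM with FGF18 (log2 -0.56, SE 0.13, FDR = 0.00251, edgeR's quasi-likelihood test). For both genes the WT groups did not overlap. Syncrip (ENSRNOG00000000204.7), an hnRNP-like protein, had a log2 fold change of -0.71 (FDR = 0.0124, edgeR's quasi-likelihood test), which was lost without WT vehicle replicate 3 (FDR = 0.0706) or WT FGF18 replicate 3 (FDR = 0.0578). Tpr (ENSRNOG00000002394.6), of the nuclear basket of the pore, had a log2 fold change of -0.39 (FDR = 0.0496, edgeR's quasi-likelihood test). Tpr was lost without WT vehicle replicates 2 or 3, WT FGF18 replicates 2 or 3 or FGFR3/4KO vehicle replicate 1 (FDR from 0.0619 to 0.238, edgeR's quasi-likelihood test), and with DESeq2, upper-quartile scaling or the replicate block. For FGFR3/4KO RCS, 0 of 42 passed with FGF18 by edgeR's quasi-likelihood test, with 1 at an unadjusted p under 0.05. The interaction passed for 0 of 42 by the same test, against 10.9% of all genes. Of the 42, 3 had an unadjusted p under 0.05 for it, against 1698 of all 7378 genes. With FGF18 in both, 7 of the 42 were higher in the clone than in WT RCS (16.7%, against 16.9% of all genes) and 1 was lower (2.38%, against 17.0%).

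Between the clone and WT RCS, these other genes differed without FGF18 in 3 of 42 cases (7.14%, below the 14.1% of all genes). They are named here after their values were seen. Srpk1 (ENSRNOG00000000511.8), the kinase that phosphorylates SR proteins, was at 143, 124 and 167 CPM in WT RCS and 224, 300.3 and 222 CPM in the clone (log2 0.75, SE 0.16, FDR = 0.00203, edgeR's quasi-likelihood test). The groups did not overlap, and the call held without any 1 library. Bud31 (ENSRNOG00000000989.8), a spliceosome protein, was lower in the clone, at 55.2, 56.7 and 89.9 CPM against 104, 139 and 122 CPM in WT RCS (log2 -0.80, SE 0.19, FDR = 0.00537, edgeR's quasi-likelihood test). Without FGFR3/4KO vehicle replicate 1 its FDR was 0.0610 by edgeR's quasi-likelihood test. Nono (ENSRNOG00000003689.6), a paraspeckle protein, was near the threshold (log2 0.44, FDR = 0.0497, edgeR's quasi-likelihood test), was called in 4 of 12 fits without 1 library, and had an FDR of up to 0.200 in the other fits by edgeR's quasi-likelihood test. DESeq2, upper-quartile scaling, both other filters on low counts and the replicate block also lost it.

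Members, whether called in WT RCS or not, were compared with all promoters by the bases before their start in RefSeq, GRCr8. Of the 54 members, 47 had an entry (Nup107, Rbms2, Ddx52 and Mettl16 had none), and the 250 bases before the start had a median of 62.4% G and C, against 51.2% over 33469 promoters. The letters searched on both strands were CCAAT, the E-box CACGTG, the core CCGGAAG of ETS factors, the core CGCATGCG of NRF1, TTTGAA or TTCGAA for the cell cycle element CHR, and TTTGGCGC, TTTCCCGC, TTTCGCGC or TTTGCCGC for E2F factors. The ETS letters were in 12 of 47 members (25.5%, against 7.27% of all promoters) and the NRF1 letters in 5 (10.6%, against 1.47%). CCAAT was in 18 (38.3%, against 34.02%), the E-box in 4 (8.51%, against 5.59%), the CHR letters in 7 (14.9%, against 17.4%) and the E2F letters in 2 (4.26%, against 1.73%). Of the members that fell in WT RCS, 9 had an entry. Among these 9, CCAAT was in 4 and each of the other letters in 1. G and C content differed between members and all promoters, and its part in these shares was not tested.

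The 250 bases before the start are shown for the members that passed in WT RCS in every alternative and had an entry, 4 that fell (Srsf2, Hnrnpd, Nup85 and Cpsf2) and 1 that rose (Celf5), so that their letters can be set beside their levels. They run 5′ to 3′ on the strand of the gene, from RefSeq, GRCr8, with any letters searched in capitals, and no 2 matches overlapped.
Srsf2 (chr10:102554142-102554391, minus strand): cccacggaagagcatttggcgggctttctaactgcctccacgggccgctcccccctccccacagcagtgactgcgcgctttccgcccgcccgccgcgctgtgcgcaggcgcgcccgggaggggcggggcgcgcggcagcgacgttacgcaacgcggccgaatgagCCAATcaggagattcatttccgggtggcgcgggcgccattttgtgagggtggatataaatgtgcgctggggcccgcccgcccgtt
Hnrnpd (chr14:9919507-9919756, plus strand): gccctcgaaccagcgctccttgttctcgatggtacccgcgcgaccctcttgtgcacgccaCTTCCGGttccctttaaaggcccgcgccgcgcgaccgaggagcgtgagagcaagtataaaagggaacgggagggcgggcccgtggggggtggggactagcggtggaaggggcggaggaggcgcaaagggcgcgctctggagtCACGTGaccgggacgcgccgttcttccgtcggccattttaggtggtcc
Nup85 (chr10:101305185-101305434, plus strand): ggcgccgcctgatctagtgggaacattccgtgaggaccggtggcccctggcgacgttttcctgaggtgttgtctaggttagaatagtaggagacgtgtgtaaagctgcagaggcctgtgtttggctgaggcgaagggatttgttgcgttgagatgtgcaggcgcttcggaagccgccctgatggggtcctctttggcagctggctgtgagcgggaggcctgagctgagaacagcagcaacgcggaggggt
Cpsf2 (chr6:126888872-126889121, plus strand): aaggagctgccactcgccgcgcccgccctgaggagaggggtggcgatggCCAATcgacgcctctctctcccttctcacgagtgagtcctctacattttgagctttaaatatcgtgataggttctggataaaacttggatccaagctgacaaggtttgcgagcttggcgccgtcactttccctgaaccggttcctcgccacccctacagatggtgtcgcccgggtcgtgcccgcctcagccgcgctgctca
Celf5 (chr7:8876335-8876584, plus strand): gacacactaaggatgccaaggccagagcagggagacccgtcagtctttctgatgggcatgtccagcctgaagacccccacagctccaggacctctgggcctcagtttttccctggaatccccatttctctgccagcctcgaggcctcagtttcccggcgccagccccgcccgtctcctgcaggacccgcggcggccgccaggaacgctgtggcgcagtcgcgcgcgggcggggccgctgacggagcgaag

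Srsf2 held a CCAAT beginning 85 bases before the start, and Cpsf2 one beginning 201 bases before it. Hnrnpd held an E-box beginning 48 bases before the start and the ETS letters on the opposite strand. Nup85 and Celf5 held none of the letters searched in this window. A match is a description of the letters, and these promoters of members that fell shared no motif in all 4.

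The sources used here do not say whether reads were counted by strand. On GRCr8, 15 of the 54 members overlap another protein-coding gene in the RefSeq table. Whether reads in such an overlap were told apart or left out is therefore not known. Members called above with such an overlap were Cpsf2 (with Ndufb1), Snrpf (with Ccdc38), Sf3a1 (with Ccdc157) and Rbms2 (with Baz2a). Also among them were Ddx39a (with Adgre5), Ddx54 (with Cfap73), Nup88 (with Rabep1) and Elavl1. Srsf2, Hnrnpd, Nup85, Nup107, Ddx52 and Celf5 overlap none. Paralogs and processed pseudogenes of these families can share reads, and this was not measured.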

How the data were processed

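The authors used Trim Galore on the QuantSeq reads, STAR for alignment against rn6 and htseq-count for reads per gene, and the deposited values are raw counts for 32754 rat Ensembl genes in 12 libraries. The study's methods name a human Gencode release as gene model, so which rat annotation the counts rest on is uncertain. Of all reads in a library, 71.2% to 79.8% were passed over for low alignment quality and 7.44% to 9.96% lay in no gene, and these stayed out of library sizes. Genes with enough reads (filterByExpr in edgeR 4.0.16, minimum count 10, total 15) were scaled by TMM and fitted with 1 quasi-likelihood model of 4 group means in R 4.3.3, which gave 5 comparisons. DESeq2 1.42.0, a likelihood-ratio test, other scalings and filters, a replicate block, only the groups compared, and each library left out in turn were alternatives. The replicate block added the replicate number as a term to the same edgeR model. Members were named where they passed the threshold in any comparison, with the most read other member as an example in most role lists, and 1 item is not reported here. Genes outside the name rule were named where they passed with FGF18 in WT RCS, and 3 more, called between the clone and WT RCS with vehicle, were chosen after their values were seen. Gene names came from the study's supplementary gene table, which was held only in part and names 1998 genes, so members without a name there are missing. Members and lists were chosen with earlier results of these data known. Promoters and gene neighbours came from RefSeq, GRCr8, and were processed with Python 3.11.15 and pandas 2.3.3.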

Additional observations from a re-analysis of the deposited data

Results flagged for a closer look

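For 6 members a test of the difference itself put the FGF18 effect in FGFR3/4KO RCS apart from that in WT RCS. They are 11.5% of the 52 members tested, near the 10.9% of all genes. On the log2 scale the difference was 1.86 for Nup107, 1.69 for Nup85, 1.15 for Snrpf, 0.62 for Srsf2, -0.9 for Rbms2 and -1.99 for Celf5. The calls for Nup107 and Nup85 held in every setting, and each of the others was lost without some single libraries. Groups of 3 libraries were not tested for outliers.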

How the results depend on the processing

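Of the values for named genes under the alternatives, 906 kept direction and side of the threshold, 148 kept direction only and 0 reversed, and 29 of 53 named results passed in every setting. The count of members lower with FGF18 in WT RCS ran from 7 to 16 with 1 library left out, against 12, and of those higher from 2 to 3. In FGFR3/4KO RCS, 0 members passed in every setting. Of all genes there, 9 were higher and 11 lower with no filter, and the likelihood-ratio test gave 3 lower, only the groups compared 2, at least 1 CPM in 3 libraries 1, and leaving out 1 library 0 to 1. The interaction gave 2 to 6 positive and 0 to 2 negative members with 1 library left out, and 0 negative with DESeq2, no filter or at least 1 CPM. For the clone against WT RCS with vehicle, leaving out 1 library gave 0 to 1 members higher and 0 to 2 lower. The likelihood-ratio test gave 1 higher and 1 lower there, only the groups compared 1 higher and 2 lower, and upper-quartile scaling 1 lower. Of all genes, 685 were lower with only the groups compared and 258 to 530 with 1 library left out, against 448. With FGF18 in both, 9 to 14 members were higher with 1 library left out, and 9 to 14 in the other settings (9 with only the groups compared, 10 with DESeq2), against 13. There, 3 to 4 were lower with 1 library left out, and 3 with DESeq2, no filter, at least 1 CPM, only the groups compared or the replicate block, but 6 with upper-quartile scaling, against 5. Leaving out a library leaves fewer samples, and otherwise the cause was not tested.

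Libraries with the same replicate number had a mean residual correlation of -0.0296 (18 pairs) and those with different numbers 0.0151 (36 pairs). The labels do not say whether libraries with the same number were paired. A mean over all tested genes cannot exclude a pairing that touched some of them.

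The direction of each role list in WT RCS held under every scaling, except the other RNA-binding proteins, whose median was near 0. FGFR3/4KO vehicle replicate 2 had the fewest reads on genes, 373964, and its part in calls for rare members was not tested. With 1 clone and 3 libraries a group, a call that was not made does not show that a level was unchanged. Members were read near the 3′ end only, so isoforms were not measured.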

Other observations

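Matched by name but below the total of 60 reads were Prpf39 with 46 reads over all libraries, Mettl22 with 38, Smg8 with 34, Lsm11 with 21 and Mettl15 with 14.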
